A study of Mus musculus with 36 samples.

Results

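Axon guidance ligands and receptors are the genes of the semaphorins and their plexin and neuropilin receptors, the netrins and their Dcc and Unc5 receptors, the Slits and their Robo receptors, and the ephrins and their Eph receptors. Members were taken by symbol from all protein-coding genes of these families. The rule used no measured value, although the families were chosen with earlier results of these data known. There were 68 members among 21811 protein-coding genes and 49671 gene identifiers counted in all. They comprised 20 semaphorins, 9 plexins, 2 neuropilins, 3 netrins, 5 genes of the Dcc and Unc5 group, 3 Slits, 4 Robos, 9 EphA and 5 EphB receptors, 5 ephrin-A and 3 ephrin-B genes, which makes 34 ligands and 34 receptors.

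Semaphorins signal through plexins, and the secreted class 3 semaphorins mostly need a neuropilin as co-receptor. Netrins attract cells through Dcc and repel them through Unc5 receptors, and Slits repel cells through Robo receptors. Ephrins sit on the membrane of one cell and bind Eph receptor kinases on its neighbour, so that both cells can receive a signal. These systems were described for growing axons, and they are also known to steer migrating mesoderm, to set boundaries between somites and to pattern blood vessels.

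Polyadenylated RNA came from a mouse embryonic stem cell line that turns on Mesp1 when given doxycycline (dox). Mesp1 is the transcription factor of nascent mesoderm that comes before heart and vessel progenitors. The records of all 36 libraries give the inducible line and a protocol of hanging drops of 1000 cells in serum. The controls thus differ by the absence of dox and not of the transgene. Time is given in hours after a labelled stage of differentiation. Batch 1 holds 5 wild-type groups of 2 libraries, namely 0 h and, for both 12 h and 24 h, one group that received dox and one that did not. Batch 2 is wild type as well, with 2 libraries of the 0 h start and, for 24 h, 4 that received dox and 2 that did not. Batch 3 holds 2 wild-type and 2 libraries labelled Zic2 knockout, all at 24 h with dox. A further set has 2 libraries without and 2 with dox from cells in 2i, a pair of kinase inhibitors that keeps stem cells naive. Their records carry the shared serum protocol as well, which is at odds with the 2i in their titles. Day 4 libraries are 5 of double positive cells, sorted on Flk1 (encoded by Kdr) and Pdgfra together, 3 of double negative cells and 2 of unsorted (bulk) cells. The bulk titles carry an unexplained tag ND. The sorted titles name no dox treatment, and no label says that replicates were separate cultures. P-values therefore measure the spread between these libraries, which may be technical.

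Gene totals ran from 12126604 to 51940589 counts per library, and levels are given as CPM (counts scaled to the library's gene total), in which a single read was worth 0.0193 to 0.0825. Mesp1 was read at 0.808 to 45.3 CPM at 24 h without dox and at 42.9 to 544 CPM with it, and reads of the transgene and of the endogenous gene cannot be told apart. Zic2 was at 73 and 56.4 CPM in the libraries labelled Zic2 knockout and at 108 and 74.7 CPM in the wild type, a log2 difference of -0.5 (SE 0.22, adjusted p = 1, edgeR), so the counts do not check that label. Kdr was at 2.84 to 6.57 CPM in double negative and at 735 to 1260 CPM in double positive libraries. Replicate 1 of the 4 batch 2 libraries with dox stood apart from the other 3 in 9 members, Ntn1 (121 against at most 32.3 CPM) and Plxnd1 (157 against at most 81.6 CPM) among them. The count of members called for dox at 24 h is given with and without it, and other counts that use it are not. In 157 other genes of good level in batch 1 all batch 2 libraries were at 0, but no member was.

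Most members were transcribed in these cells: 65 of the 68 reached a mean of 1 CPM in at least 1 of the 15 groups. The 3 that did not were Dcc, the attractive netrin receptor, the plexin Plxnb3 and the Eph receptor Epha6. Dcc was between 0 and 0.6 CPM in every library. Per kilobase of exon, which allows levels of different genes to be compared, the receptors Unc5b (31.7 and 29.7 CPM per kb in batch 1 and batch 2) and Plxna1 (28.2 and 22.5) led at 0 h. At 24 h without dox Epha1 led in batches 1 and 2, with mean levels of 71.1 and 97.6 CPM per kb. With dox Epha4 led in these 2 batches, with 62 and 44.7 CPM per kb. In the batch 3 wild type with dox Ephb4 led instead, at 39.5 CPM per kb, with Epha4 at 29.2 CPM per kb. In double positive cells the order began with Ephb4 at 39.4 and Efna3 at 35.1 CPM per kb. The heat map of group means shows that neighbours within a family often had unlike levels.

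**Figure D1:**
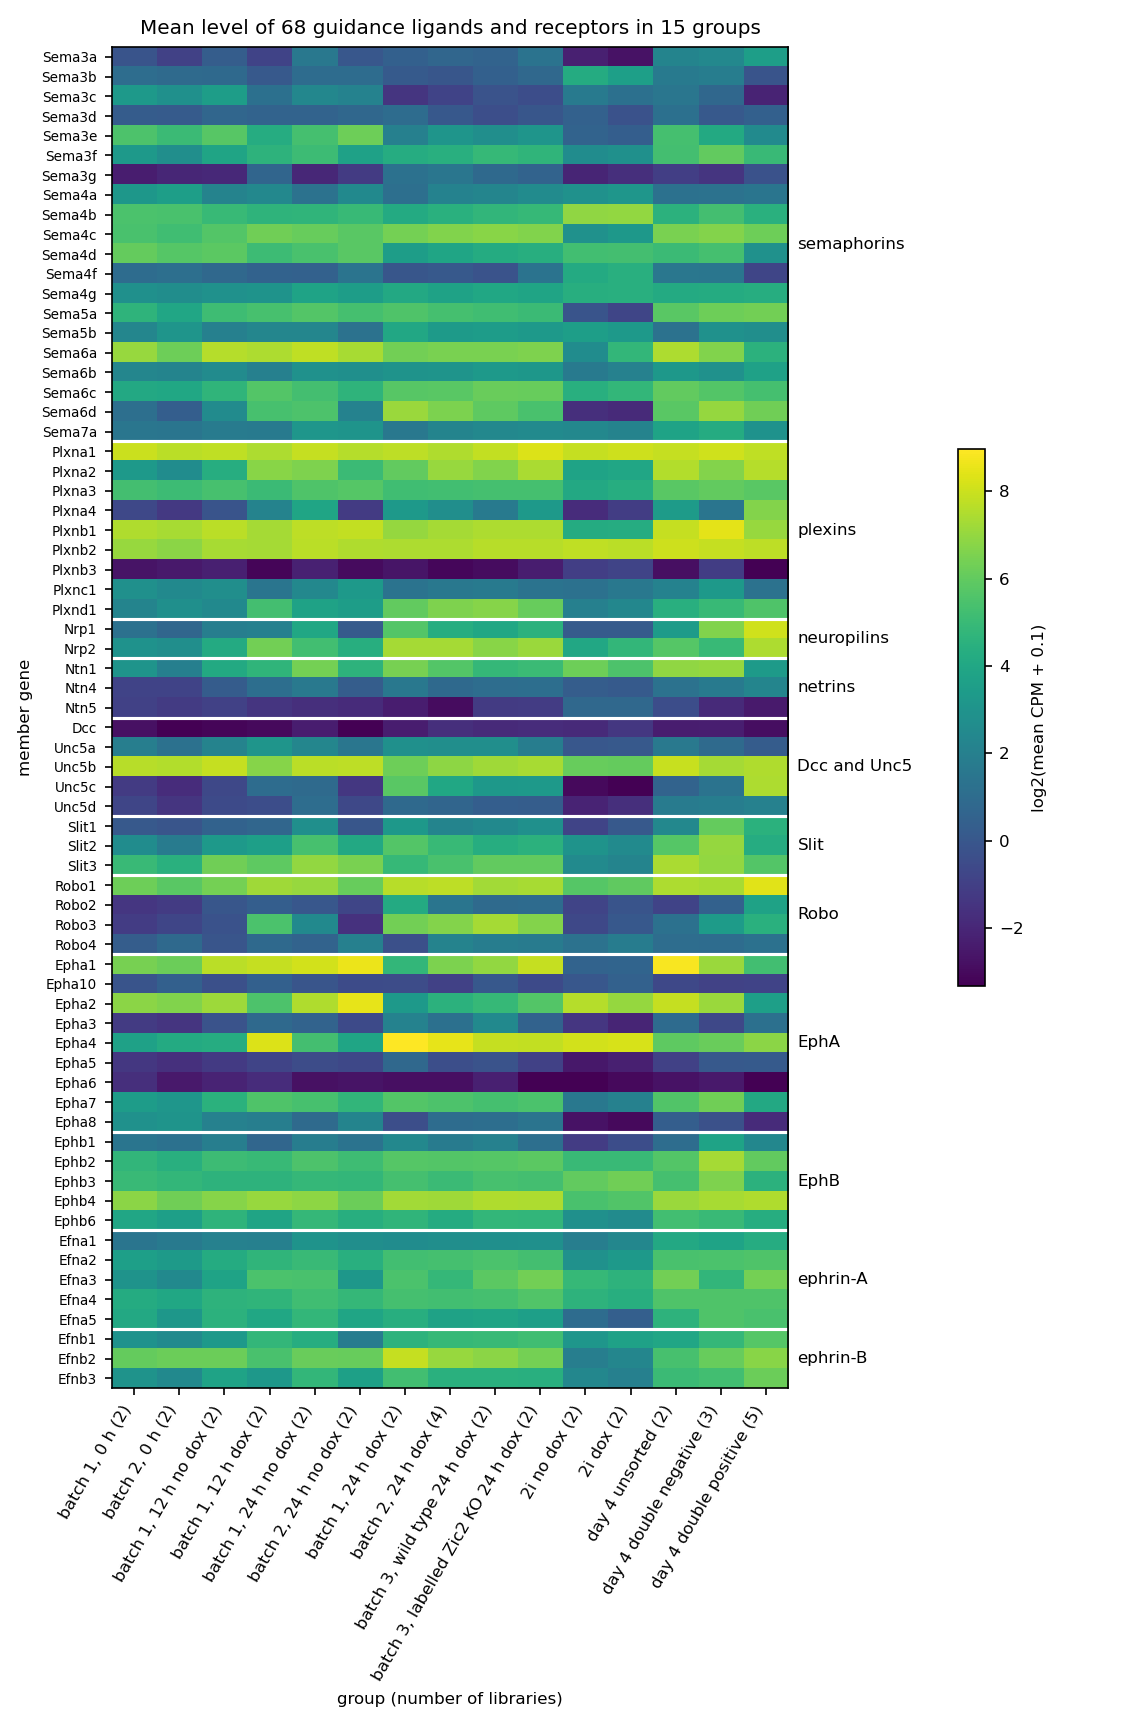
Mean level of each of the 68 members (rows, grouped by family) in the 15 groups (columns, number of libraries in brackets), as colour on a log2(mean CPM + 0.1) scale. Epha4 is bright with dox at 24 h and in 2i, Nrp1 and Unc5c in double positive cells, and Dcc, Epha6 and Plxnb3 are dark in every column.

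Dox at 24 h changed ligands and receptors of nearly all families: 40 of the 64 members tested were called by edgeR at an adjusted p below 0.05, 24 higher and 16 lower. Over all 64 tested members 38 did not overlap between the arms within either batch (37 of the 40 called), against 28% of all genes tested. Over all 18592 genes tested 30.0% were called, 15.4% higher and 14.6% lower, against 62.5% of the members. The median log2 fold change was 0.32 over the members and 0.02 over all genes. Ligands gave 22 calls among 33 tested and receptors 18 among 31. Plxnb3, Ntn5, Dcc and Epha6 were too low to be tested. Without replicate 1 of batch 2 with dox, 38 members were called, the calls of Efna4 and Slit2 being lost. Batch 1 alone gave 12 higher and 15 lower calls, and batch 2 alone gave 26 higher and 8 lower, so the balance of direction differed between them. All 40 had the same sign in both batches, and 20 were called in each batch by itself.

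**Figure D2:**
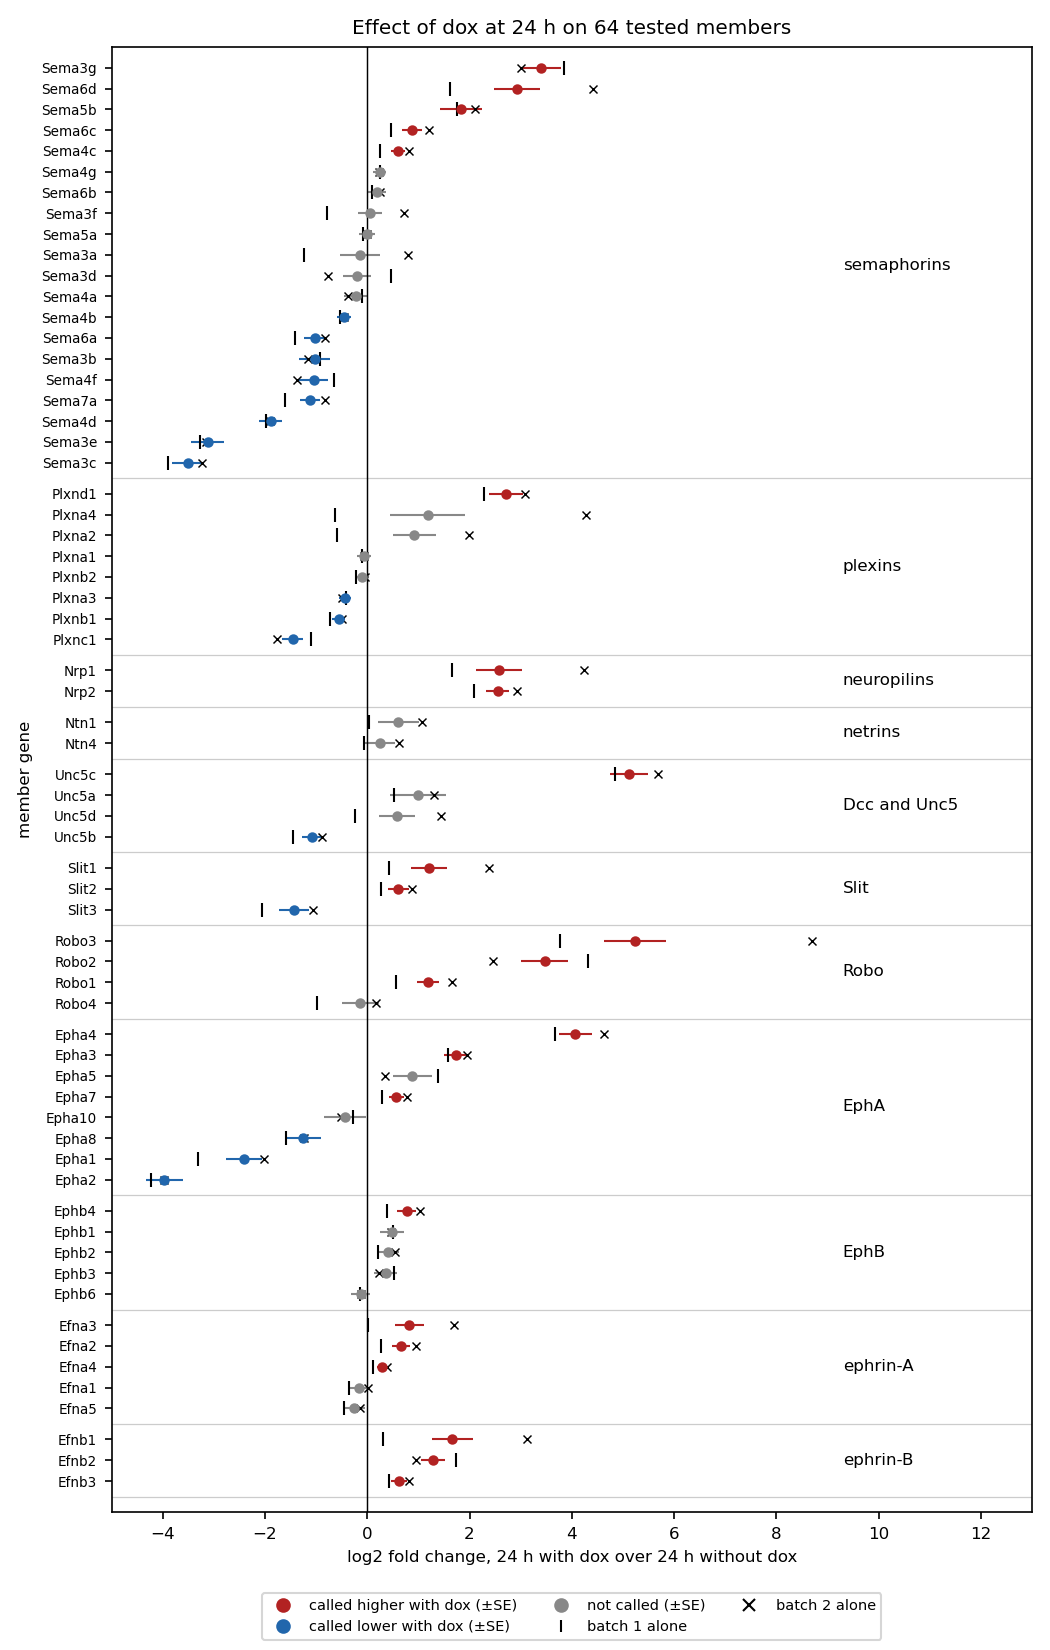
Log2 fold change of 24 h with dox over 24 h without dox for the 64 tested members, by family (dot with SE from the fit of both batches, tick for batch 1 alone, cross for batch 2 alone, coloured by call). Neuropilins and ephrin-B genes lie to the right of 0, semaphorins and EphA receptors spread to both sides, and the crosses of Plxna4, Robo3 and Efnb1 lie far to the right of their ticks.

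Promoters are shown for the members called the same way at 12 h and at 24 h of dox. Of these 12, 4 had a single RefSeq promoter entry lying wholly before the annotated gene, and the 250 bases before the start of each are printed 5′ to 3′ on the gene's strand (RefSeq, GRCm38.p6), with the E-box letters CANNTG, the kind of motif bound by basic helix-loop-helix factors such as Mesp1, in capitals. Epha4 (chr1:77515089-77515338, minus strand) and Plxnd1 (chr6:115995006-115995255, minus strand) rose with dox, and Plxnc1 (chr10:94944846-94945095, minus strand) and Unc5b (chr10:60831582-60831831, minus strand) fell.
Epha4: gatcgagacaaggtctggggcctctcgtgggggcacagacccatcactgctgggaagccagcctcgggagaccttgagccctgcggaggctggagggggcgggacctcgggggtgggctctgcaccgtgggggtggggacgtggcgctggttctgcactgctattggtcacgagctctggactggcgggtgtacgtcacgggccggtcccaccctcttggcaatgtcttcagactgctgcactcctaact
Plxnd1: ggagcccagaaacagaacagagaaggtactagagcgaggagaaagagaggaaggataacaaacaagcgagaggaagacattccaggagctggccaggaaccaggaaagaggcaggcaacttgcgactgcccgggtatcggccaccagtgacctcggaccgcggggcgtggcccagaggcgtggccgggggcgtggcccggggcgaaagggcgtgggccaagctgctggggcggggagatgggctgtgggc
Plxnc1: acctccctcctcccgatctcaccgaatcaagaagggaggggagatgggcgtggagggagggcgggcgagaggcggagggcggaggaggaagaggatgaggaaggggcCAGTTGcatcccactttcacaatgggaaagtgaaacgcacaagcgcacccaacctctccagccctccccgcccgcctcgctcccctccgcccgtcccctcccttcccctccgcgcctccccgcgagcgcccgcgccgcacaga
Unc5b: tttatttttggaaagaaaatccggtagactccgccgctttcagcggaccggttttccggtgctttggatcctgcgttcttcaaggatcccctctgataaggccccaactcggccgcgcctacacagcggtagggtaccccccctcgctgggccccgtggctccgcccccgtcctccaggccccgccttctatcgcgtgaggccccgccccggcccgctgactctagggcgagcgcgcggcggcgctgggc
For Plxnc1 the bases after the RefSeq start were not found at an annotated transcript start, so the place of its window relative to the start is less certain than for the others. CANNTG reads the same on both strands. It occurred once in the window of Plxnc1, as CAGTTG, and not in the other 3. Among all 32851 promoter windows of this length 66.2% held it, and 48.6% of the 74 windows of the 58 members with an entry did. These are matches of letters, and nothing about binding was measured.

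EphA receptors moved in both directions, 3 up and 3 down among 8 tested. Epha4, a receptor that binds ephrins of both classes and acts at somite boundaries, was at 48.2 and 30.1 CPM without dox and at 533 and 466 CPM with it in batch 1, and at 16.4 and 13 CPM against 397, 328, 366 and 351 CPM in batch 2. Its groups were far apart, with a log2 fold change of 4.07 (SE 0.32, adjusted p = 8.18e-08, edgeR). Epha3 rose from 1.76 and 1.07 to 4.44 and 4.22 CPM in batch 1 and from 0.577 and 0.564 to 2.71, 1.54, 1.81 and 2.8 CPM in batch 2 (log2 1.74, SE 0.24, adjusted p = 3.02e-05). Epha2, the receptor for ephrin-A ligands typical of epithelia, fell the other way: it was at 152 and 208 CPM without and 9.87 and 9.57 CPM with dox in batch 1, and at 360 and 375 against 6.53, 42.4, 21 and 23.6 CPM in batch 2 (log2 -3.97, SE 0.36, adjusted p = 2.78e-07). Epha1 went from 261 and 297 to 29 and 27.9 CPM in batch 1 and from 391 and 376 to 27, 140, 112 and 95.5 CPM in batch 2 (log2 -2.41, SE 0.36, adjusted p = 6.4e-05). Both had their lowest batch 2 value in replicate 1.

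Ephrins and EphB receptors showed smaller changes, and all of their 7 calls were upward. Efnb2, the ephrin-B ligand that marks arterial endothelium and the posterior part of somites, was at 69.9 and 73.5 CPM without dox in batch 1 and 70.6 and 67.5 CPM in batch 2. With dox it was at 197 and 276 CPM and at 199, 99, 104 and 129 CPM, above every library without dox (log2 1.29, SE 0.23, adjusted p = 0.000366, edgeR). Efnb1 was at 20.9 and 19 against 24.2 and 25.4 CPM in batch 1 and at 3.52 and 3.32 against 33, 32.2, 25.6 and 28.7 CPM in batch 2. The arms thus lay close in batch 1 (log2 0.31, adjusted p = 0.339) and wide apart in batch 2 (log2 3.13, adjusted p = 3.51e-05), with a joint value of 1.66 (SE 0.4, adjusted p = 0.00406). Efnb3 rose from 28.8 and 27.4 to 42 and 34.2 CPM in batch 1 and from 11.7 and 13.7 to 28.5, 19.4, 20 and 20.4 CPM in batch 2 (log2 0.62, SE 0.15, adjusted p = 0.00482). Efna2, Efna3 and Efna4 were called higher by 0.29 to 0.82 on the log2 scale, and Efna4 lost its call in 14 of 17 alternative fits and Efna3 in 7. Of the EphB receptors only Ephb4, the venous partner of Efnb2, was called. It was at 105, 132, 73.9 and 73.8 CPM without and 124 to 179 CPM with dox (log2 0.77, SE 0.18, adjusted p = 0.00272), and its batch 1 arms overlapped.

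Ephb3 (log2 0.36), Efna1 (-0.16) and Efna5 (-0.25), called in the opposite direction in another comparison below, were not called here. Their adjusted p-values were 0.256, 0.54 and 0.383.

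Robo receptors rose and their Slit ligands split. Robo3, known for making commissural axons deaf to Slit before they cross the midline, was at 7.95 and 3.33 CPM without and 93.8 and 66.9 CPM with dox in batch 1, and at 0.231 and 0.251 against 84.2, 85.2, 107 and 134 CPM in batch 2 (log2 5.23, SE 0.61, adjusted p = 4.1e-06, edgeR). Robo2, a canonical Slit receptor, was at 0.822 and 1.01 against 20.4 and 15.7 CPM in batch 1 and at 0.404 and 0.564 against 3.89, 2.02, 2.58 and 2.23 CPM in batch 2 (log2 3.47, SE 0.46, adjusted p = 1.66e-05). The rise of Robo2 was to a higher level in batch 1 than in any batch 2 library. Robo1, the most abundant Robo in CPM, was at 130 and 139 against 158 and 237 CPM in batch 1 and at 72.9 and 63.1 against 213, 215, 217 and 204 CPM in batch 2 (log2 1.19, SE 0.21, adjusted p = 0.000257), with a value of 0.56 (adjusted p = 0.227) in batch 1 alone. Robo4, the vascular member, stayed uncalled at 0.487 to 6.72 CPM (log2 -0.14, adjusted p = 0.821). Among the ligands Slit3 fell from 98.6 and 152 to 20 and 40.9 CPM in batch 1 and from 88.9 and 92 to 27.5, 60.9, 36.2 and 46.6 CPM in batch 2 (log2 -1.43, SE 0.29, adjusted p = 0.000897). Slit1 (log2 1.2, adjusted p = 0.0143) and Slit2 (0.61, adjusted p = 0.0308) were called higher, and leaving out 1 library ended the call of Slit1 in 2 fits and of Slit2 in 5.

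Both neuropilins and Plxnd1 rose with dox at 24 h, and 3 of the other 7 tested plexins fell. Nrp2, which serves Sema3f and Vegfc among other ligands, was at 43.1 and 31.3 against 145 and 173 CPM in batch 1 and at 18.4 and 23.6 against 126, 196, 151 and 159 CPM in batch 2 (log2 2.55, SE 0.22, adjusted p = 1.44e-07, edgeR). Nrp1, the co-receptor of Sema3a and Vegfa, was at 20.2 and 12 against 60.2 and 42.3 CPM in batch 1 and at 0.981 and 1.13 against 23.8, 21.6, 16.8 and 16.9 CPM in batch 2 (log2 2.58, SE 0.45, adjusted p = 0.000266). Both were higher in all 6 libraries with dox than in the libraries without dox of the same batch. Plxnd1, the receptor of Sema3e in vessels, rose from 11.8 and 14.7 to 49.9 and 78.2 CPM in batch 1 and from 12.5 and 10.1 to 157, 71.8, 71.1 and 81.6 CPM in batch 2 (log2 2.71, SE 0.33, adjusted p = 7.06e-06). Plxnc1, the receptor of Sema7a, fell from 5.08 and 5.29 to 2.46 and 2.43 CPM in batch 1 and from 9.69 and 10.3 to 2.93, 2.43, 3.55 and 2.75 CPM in batch 2 (log2 -1.46, SE 0.2, adjusted p = 2.75e-05). Plxnb1, the receptor of Sema4d, fell by 0.56 on the log2 scale (adjusted p = 0.00197) from 206 to 232 CPM without dox to 115 to 192 CPM with it. Plxna3 fell by 0.44 (adjusted p = 0.0129) and was called in neither batch by itself.

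Semaphorins gave 5 higher and 8 lower calls among 20. Sema3c, a secreted ligand of neural crest and outflow tract, fell to near the detection limit: it was at 5.68 and 4.34 against 0.451 and 0.0811 CPM in batch 1 and at 3.87 and 4.58 against 0.66, 0.566, 0.278 and 0.286 CPM in batch 2 (log2 -3.51, SE 0.3, adjusted p = 1.66e-07, edgeR). Sema3e, the ligand of the rising Plxnd1, fell from 42.5 and 38.8 to 5.39 and 2.6 CPM in batch 1 and from 74 and 76.1 to 3.23, 13.6, 7.73 and 9.15 CPM in batch 2 (log2 -3.12, SE 0.32, adjusted p = 9.5e-07). Sema4d, a membrane ligand, fell from 35 and 52.7 to 8.07 and 14.7 CPM in batch 1 and from 56.1 and 55.2 to 9.76, 16.1, 14.4 and 18.7 CPM in batch 2 (log2 -1.89, SE 0.22, adjusted p = 4.56e-06). None of these 3 ligands overlapped between the arms. Sema3g, a ligand of Nrp2, rose from 0.145 and 0.178 to 2.19 and 2.43 CPM in batch 1 and from 0.231 and 0.439 to 3.3, 2.43, 2.65 and 2.52 CPM in batch 2 (log2 3.39, SE 0.39, adjusted p = 3.58e-06). The other calls were Sema5b, Sema6c, Sema6d and Sema4c upward (log2 0.6 to 2.93) and Sema3b, Sema4b, Sema4f, Sema6a and Sema7a downward (log2 -0.46 to -1.12). Sema5a, called in another comparison, had a log2 difference of 0 (SE 0.16).

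Unc5 receptors changed against each other and the netrins did not pass the test. Unc5c rose from 2.68 and 0.892 to 67.2 and 44.8 CPM in batch 1 and from 0.404 and 0.188 to 25.2, 13.5, 12.9 and 11.6 CPM in batch 2 (log2 5.12, SE 0.37, adjusted p = 2.36e-08, edgeR), the smallest p of any member. Unc5b, the vascular Unc5 receptor, fell from 188 and 230 to 81.3 and 73.1 CPM in batch 1 and from 206 and 227 to 73.2, 168, 98.5 and 124 CPM in batch 2 (log2 -1.09, SE 0.18, adjusted p = 0.000191). Per kilobase Unc5b stayed more abundant than Unc5c with dox, at 12.3 against 2.93 CPM per kb in batch 1 and at 18.5 against 0.825 CPM per kb in batch 2. Ntn1, the main secreted netrin, was at 70.4 and 98.3 against 68.4 and 105 CPM in batch 1 and at 24 and 25.6 against 121, 27.8, 24.9 and 32.3 CPM in batch 2 (log2 0.61, SE 0.4, adjusted p = 0.298), and its arms overlapped apart from the high replicate 1.

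**Figure D3:**
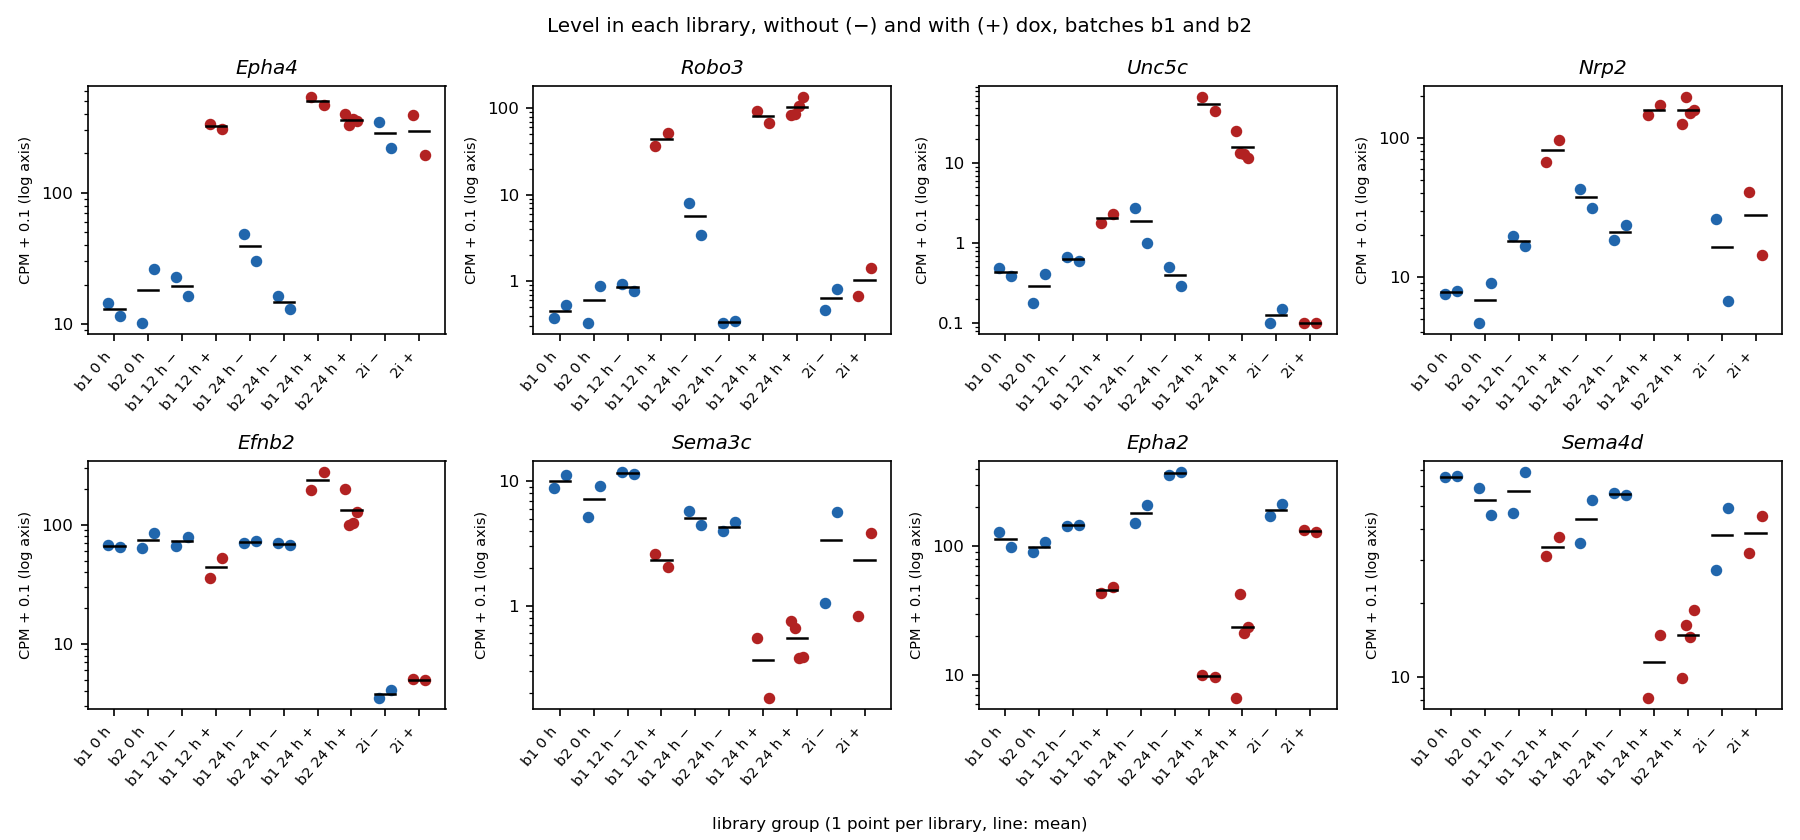
Level of 8 members in each library of batches b1 and b2 and in 2i, as CPM + 0.1 on a log axis (red points with dox, blue points without, black lines group means). Epha4, Robo3, Unc5c, Nrp2 and Efnb2 are higher with dox at 24 h, Sema3c, Epha2 and Sema4d are lower, and in 2i Epha4 is high with or without dox.

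Downstream partners of these receptors rose more often than they fell with dox at 24 h. Of 44 tested effector genes 19 were called higher and 4 lower, with a median log2 fold change of 0.3. Over all genes tested 15.4% were called higher and 14.6% lower, with a median of 0.02. Dpysl4, a collapsin response mediator family gene, was at 2.48 to 4.16 CPM without and 20.5 to 27.3 CPM with dox (log2 2.97, SE 0.27, adjusted p = 2.61e-07, edgeR). Srgap3, a Slit-Robo GTPase activating protein, was at 9.84 to 15 against 32.2 to 50.6 CPM (log2 1.81, SE 0.17, adjusted p = 3.88e-07), and Vav3, an exchange factor used by Eph receptors, at 3.45 to 5.77 against 13.8 to 20.2 CPM (log2 1.99, SE 0.22, adjusted p = 2.62e-06). None of the 3 overlapped. Of 33 other guidance genes outside the families 12 were higher and 6 lower, with a median of 0.22. Cxcl12, a chemokine, fell from 83.7 to 202 CPM to 8.14 to 18.5 CPM (log2 -3.54, SE 0.22, adjusted p = 7.98e-09), Nfasc, an adhesion molecule, from 51.7 to 70.4 CPM to 9.1 to 16.7 CPM (log2 -2.17, SE 0.2, adjusted p = 3.18e-07), and Rgma, a ligand of neogenin, rose from 8.42 to 23.8 CPM to 37.5 to 111 CPM (log2 2.34, SE 0.35, adjusted p = 5.26e-05).

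Markers of other cell types moved beside these genes, and their part in the members' changes was not tested. In bulk RNA, fewer cells of a type and less RNA per cell cannot be told apart. The summed level of 12 pluripotency genes was 2660 to 3950 CPM at 24 h without dox and 575 to 1240 CPM with it, 9 of the 12 being called lower. Summed endothelial markers (13 genes) were at 39.4 to 46.5 CPM without and 57.8 to 101 CPM with dox, with 6 of 11 tested called higher and none lower. Blood markers (9 genes) were at 12.7 to 16.4 against 62.7 to 99 CPM, with 2 of 6 tested higher and 1 lower. Mesoderm markers (16 genes) gave 10 higher and 5 lower calls of 16, endoderm markers 0 and 5 of 12, and neural crest markers 3 and 1 of 7. Neural markers (14 genes) were at 268 to 383 against 274 to 465 CPM, with 6 of 12 tested higher and 5 lower, and the neuronal regulator Neurog2 had no count in either batch 2 library without dox.

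Already at 12 h 13 of 64 members were called, 10 higher and 3 lower. Over all 64 tested 38 did not overlap between the arms, the 13 called among them, against 41% of all genes tested. This was 20.3% of the members against 5.66% of all genes (3.29% higher, 2.37% lower). Of the 10 higher, 9 were among the 24 called higher at 24 h, the exception being Plxna2, and the 3 lower (Sema3c, Plxnc1 and Unc5b) were all among the 16 lower ones. Epha4 was at 22.7 and 16.4 CPM without and 332 and 307 CPM with dox (log2 4.05, SE 0.46, adjusted p = 4.12e-05, edgeR). Robo3 was at 0.817 and 0.675 against 37 and 51.5 CPM (log2 5.89, SE 0.9, adjusted p = 0.00063). Nrp2 was at 19.5 and 16.5 against 66.5 and 96.4 CPM (log2 2.21, SE 0.31, adjusted p = 0.000258). In all 3 receptors both libraries with dox lay far above both without. Plxnd1 was at 5.2 and 5.94 against 22.7 and 55.7 CPM (log2 2.85, adjusted p = 0.00156), Sema3g at 0.107 and 0.225 against 0.784 and 2.24 CPM (3.26, adjusted p = 0.00191) and Sema6d at 5.35 and 6.66 against 29.9 and 53.6 CPM (2.83, adjusted p = 0.00974). Epha7 rose from 22.6 and 23.4 to 46.5 and 49.7 CPM (1.09, adjusted p = 0.00511) and Efna3 from 14.8 and 12.6 to 52.9 and 37.5 CPM (1.74, adjusted p = 0.0143). Sema3c fell from 11.7 and 11.3 to 2.51 and 1.96 CPM (-2.33, adjusted p = 0.00119) and Plxnc1 from 6.79 and 6.57 to 2.51 and 2.77 CPM (-1.32, adjusted p = 0.017).

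The 12 h count rests on 2 libraries an arm. It was 5 without replicate 1 of the libraries without dox, 7 without replicate 2 and 8 without replicate 2 of those with dox. Epha4, Robo3, Nrp2, Plxnd1 and Sema3c were called in every alternative fit. Epha1, which fell at 24 h, was at 193 and 221 against 221 and 245 CPM at 12 h (log2 0.19), and Efnb3, which rose at 24 h, at 13.6 and 14.1 against 7.74 and 10.7 CPM (-0.56), and neither was called.

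A change of the dox effect between 12 h and 24 h passed the test for 2 members of 64 (3.12%, against 0.522% of all genes, 0.194% higher and 0.328% lower). Unc5c had 0.58 and 0.495 CPM without and 1.67 and 2.24 CPM with dox at 12 h, so that the effect was larger at 24 h by 3.27 on the log2 scale (SE 0.65, adjusted p = 0.0342, edgeR). Efnb2 was below its controls at 12 h, at 35.7 and 52.1 against 66.1 and 78.9 CPM, and above them at 24 h (difference 1.98, SE 0.42, adjusted p = 0.0449). Leaving out any 1 library gave between 0 and 5 such members, and both calls were lost in 9 of the 14 such fits, including those without any 1 of the 4 libraries at 12 h.

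Time in culture without dox raised guidance genes as well. From 0 h to 24 h 38 of 64 members were called, 34 higher and 4 lower, which is 59.4% against 25.1% of all genes (13.5% higher, 11.7% lower). The 24 h libraries without dox are also the controls of the dox comparison, so the values are set side by side only. Markers moved over this time too, and their part in the members' changes was not tested. Summed mesoderm markers were at 115 to 129 CPM at 0 h and 1890 to 1920 CPM at 24 h in batch 1, and at 53.9 to 67.5 and 875 to 1140 CPM in batch 2, with 11 of 16 called higher and 1 lower. Endoderm markers gave 7 higher calls of 12, and pluripotency markers 4 lower ones of 12. Of endothelial markers 1 was higher and 4 lower among 11 tested, of neural markers 2 and 5 among 12, of neural crest markers 2 and 2 among 7, and none of the 6 blood markers tested was called. Slit2 rose from 6.6 and 5.87 to 38.9 and 45.3 CPM in batch 1 and from 3.72 and 2.93 to 18.1 and 16.3 CPM in batch 2 (log2 2.51, SE 0.24, adjusted p = 4.81e-06, edgeR), and Ntn1 from 7.33 and 9.12 to 70.4 and 98.3 CPM and from 3.95 and 3.71 to 24 and 25.6 CPM (log2 3, SE 0.48, adjusted p = 0.000334). Both ligands were higher in every 24 h library than in any 0 h library. Epha7 rose from 10.1 and 11.7 to 47.3 and 36.5 CPM and from 6.61 and 10.5 to 25.6 and 28.5 CPM (log2 1.74, SE 0.16, adjusted p = 4.15e-06). Efnb3 (1.48), Efna4 (0.86), Efna1 (1.25), Sema7a (1.55), Nrp2 (1.93), Plxna2 (2.89) and Sema6d (3.49) were the others of smallest p, none with an adjusted p above 0.000298. All 5 ephrin-A genes and all 3 Slits were called higher. The 4 lower ones were Sema3c, Sema4a, Sema4b and Epha8. Batch 2 alone called 9 of the 34 higher members, all of them also called in batch 1 alone, and none of the 4 lower ones. Slit1, Nrp1 and Robo3 had a value below 0 in batch 2 alone. Sema3e (0.35), Plxnb1 (0.29), Plxnc1 (0.13), Unc5b (0.07) and Efnb2 (-0.08), all called with dox, were not called over time. At 12 h without dox Epha7 alone was called (22.6 and 23.4 CPM against 10.1, 11.7, 6.61 and 10.5 CPM, log2 1.01, adjusted p = 0.0382), 1 of 64 against 0.317% of all genes (0.274% higher, 0.0430% lower).

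Batches differed in how much dox added. The dox effect at 24 h was larger in batch 2 for 9 of 64 members and smaller for none, 14.1% against 0.629% of all genes (0.554% higher, 0.0753% lower). For all 9 both 24 h libraries without dox were higher in batch 1 than in batch 2. Sema6d was at 47.4 and 43.5 CPM without dox in batch 1 and at 5.25 and 3.32 CPM in batch 2, whereas with dox it was at 132 and 148 CPM and at 70.5 to 123 CPM (difference of log2 effects 2.81, SE 0.43, adjusted p = 0.00665, edgeR). Plxna4 was at 16.4 and 13.1 against 0.173 and 0.502 CPM without dox, and at 10.6 and 8.6 against 4.55 to 8.35 CPM with it (4.93, SE 0.78, adjusted p = 0.00852). Efnb1 differed by 2.83 (SE 0.28, adjusted p = 0.000176) and Robo3 by 4.94 (SE 0.63, adjusted p = 0.00148). Nrp1 (2.59), Plxna2 (2.59), Slit1 (1.97), Efna3 (1.68) and Sema3f (1.51) were the others. Mesp1 itself was at 41.5 and 45.3 CPM without dox in batch 1 and at 0.808 and 1.5 CPM in batch 2, and summed mesoderm markers (16 genes, Mesp1 included) were at 1890 to 1920 and 875 to 1140 CPM. The part of these markers in the difference was not tested. The count was 2 and 4 without replicates 1 and 2 of batch 1 with dox, 4 without replicate 1 of batch 1 without dox and 3 without either batch 2 library without dox.

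**Figure D4:**
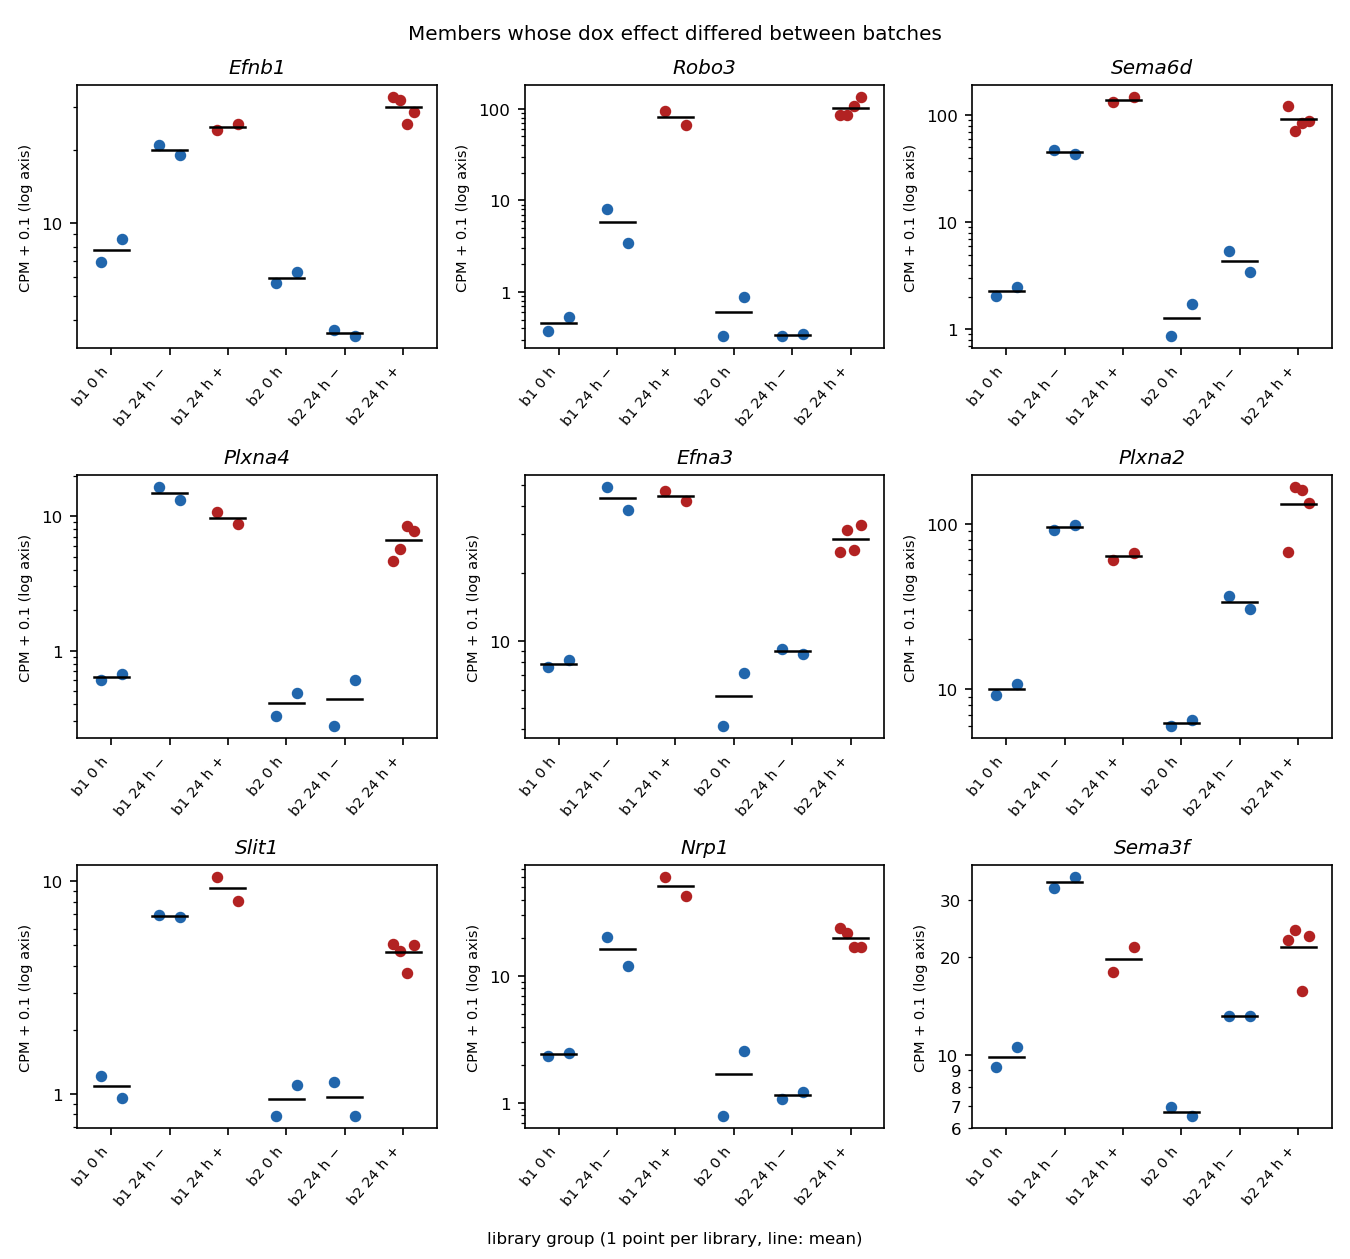
Level of the 9 members whose dox effect at 24 h differed between batch 1 (b1) and batch 2 (b2), in each library, as CPM + 0.1 on a log axis (red points with dox, blue points without, black lines group means). In most panels the blue 24 h points are high in batch 1 and low in batch 2.

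In 2i no member passed the test without a replicate block. None of 56 tested was called (3 at an unadjusted p below 0.05), and none of all 18534 genes was (0%, with 385 at an unadjusted p below 0.05 by edgeR and 47 called by DESeq2), while Mesp1 was at 1.09 and 0.613 CPM without and 85.4 and 119 CPM with dox (log2 6.9, adjusted p = 0.146). DESeq2 called 1 member. Same-numbered 2i libraries with and without dox deviated together (correlation 0.828). With the replicate number as a block some members were called, and their count is given in the closing section. Sema6a, a membrane semaphorin, had the largest difference, at 6.91 and 5.31 CPM without and 31.9 and 23.6 CPM with dox (log2 2.14), and was chosen for mention after its values were seen. Epha4 was at 347 and 220 CPM without dox and at 392 and 195 CPM with it, above every library without dox outside 2i and every day 4 library.

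Against the 24 h effect, the effect in 2i differed for 8 of 65 members (12.3%, against 7.04% of all genes, 3.77% higher and 3.27% lower). It was higher for Sema6a (difference 3.15, SE 0.43, adjusted p = 0.000173, edgeR), Epha2 (3.37, SE 0.62, adjusted p = 0.00212), Sema4d (1.85, adjusted p = 0.0102), Sema3c (2.86, adjusted p = 0.0359) and Sema3e (2.68, adjusted p = 0.0497). It was lower for Epha4 (-4.09, SE 0.56, adjusted p = 0.000192), Plxnd1 (-2.4, adjusted p = 0.0157) and Epha3 (-2.76, adjusted p = 0.024). The Epha3 value rests on few reads in 2i, 5 in all with dox and 9 without. Epha3 was too low to be tested within 2i alone. Without replicate 2 of 2i with dox 5 were called. The 2i libraries and the others also differ in culture, so that batch and medium cannot be told apart. Some members had levels in 2i unlike those in batches 1 and 2 at 24 h without dox. They were named after their values were seen. Sema4b was at 114 to 138 CPM in 2i against 24.9 to 31 CPM, and Sema4f at 16.2 to 25.3 against 1.21 to 2.65 CPM. Epha1 was at 1.09 to 1.8 against 261 to 391 CPM. Efnb2 was at 3.42 to 4.99 against 67.5 to 73.5 CPM and Sema5a at 0.26 to 1.17 against 40.3 to 56.3 CPM. Other members were alike, with Plxna1 at 195 to 277 against 177 to 265 CPM and Plxnb2 at 199 to 249 against 178 to 230 CPM. These levels were not tested against each other.

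With the label Zic2 knockout no member passed the test at 24 h of dox. None of 64 was called against the wild type of the same batch and none of all 16518 genes was (0%, with 390 genes and 6 members at an unadjusted p below 0.05 by edgeR and 5 genes called by DESeq2). Epha4 was at 232 and 239 CPM in the wild type and 252 and 206 CPM under the knockout label (log2 -0.04, SE 0.13), and Nrp2 at 112 and 110 against 133 and 144 CPM. Epha2 was at 22.1 and 36.9 against 55.6 and 45.2 CPM (0.78), Robo3 at 136 and 176 against 116 and 88.7 CPM (-0.6), Sema3e at 7.73 and 5.59 against 10.3 and 6.58 CPM (0.34) and Sema3g at 1.93 and 1.52 against 2.07 and 0.709 CPM (-0.31). The wild-type pair differed widely in some members, with Epha3 at 10.9 and 0.29 CPM and Plxna2 at 38.6 and 159 CPM. Without replicate 2 of the wild type 1 member was called.

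On day 4 double positive and double negative cells, compared over replicates 3 to 5 of each, differed in 35 of 61 tested members, 16 higher and 19 lower in double positive cells. Over all 61 tested 38 did not overlap, the 35 called among them, against 42.3% of all genes tested. This was 57.4% of the members against 25.6% of all genes (9.41% higher, 16.2% lower). Receptors gave 10 higher and 7 lower calls and ligands 6 higher and 12 lower. Same-numbered libraries of the 2 gates deviated together, and with the replicate number as a block 42 members were called, 18 higher and 24 lower. Robo1 lost its call under the block. Sema3a (log2 1.04, adjusted p = 0.0307, edgeR), Epha3 (2.03, adjusted p = 0.00527) and Ephb4 (0.31, adjusted p = 0.00292) gained one upward. Sema3f (-0.73, adjusted p = 0.00679), Sema6d (-0.75, adjusted p = 0.00148), Sema7a (-1.15, adjusted p = 0.000365), Ephb1 (-1.28, adjusted p = 0.00134) and Ephb2 (-1.08, adjusted p = 0.000172) gained one downward.

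Unc5, Robo and plexin receptors were among the members higher in double positive cells, and several varied widely between its libraries. Unc5c was at 3.95, 0.712 and 2.76 CPM in double negative libraries 3 to 5 and at 207, 29.1 and 284 CPM in the double positive ones (log2 6.14, SE 0.97, adjusted p = 0.00397, edgeR), with 44.5 and 305 CPM in double positive libraries 1 and 2. Robo2 was at 1.54, 0.949 and 1.46 against 14.5, 3.07 and 22.1 CPM (log2 3.34, SE 0.71, adjusted p = 0.0128), with 4.02 and 23.7 CPM in libraries 1 and 2. Libraries 1 and 4 were thus the low ones for both receptors. Plxna4, a class A plexin that pairs with neuropilins, was at 2.2, 2.61 and 3.15 against 69.2, 200 and 59 CPM (log2 5.4, SE 0.58, adjusted p = 0.000891), with 130 and 63.4 CPM in libraries 1 and 2, so that libraries 1 and 4 were its highest. Over the 58 members of at least 1 CPM the highest double positive library was a median 1.86 times the lowest, and 10 members exceeded 3 times. Robo1 was at 185, 119 and 186 against 272, 479 and 313 CPM (1.15, adjusted p = 0.0151), a call lost with a replicate block (1.12, adjusted p = 0.11). Robo3 was at 14.4, 11.6 and 6.14 against 18.7, 32.4 and 18.2 CPM (1.14, adjusted p = 0.0491), a call lost in 7 of 11 alternative fits.

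Neuropilins and all 3 ephrin-B ligands were higher in double positive cells. Nrp2 was at 22.8, 52.6 and 18.8 against 147, 250 and 155 CPM (log2 2.57, SE 0.43, adjusted p = 0.00495, edgeR) and Nrp1 at 89.6, 84.1 and 124 against 210 to 318 CPM (1.53, SE 0.21, adjusted p = 0.00196). Efnb3 was at 34.9, 37.6 and 40.1 against 80.3, 65.3 and 81.6 CPM (1.04, SE 0.12, adjusted p = 0.000897) and Efnb2 at 73.6, 69.4 and 66.8 against 135, 111 and 110 CPM (0.79, SE 0.1, adjusted p = 0.00128). Efnb1 was at 24.8, 25.9 and 35.9 against 63, 59.5 and 59.8 CPM (1.1, SE 0.15, adjusted p = 0.00198). The ephrin-B values were tight within each gate, unlike those of Unc5c and Robo2.

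Ntn1 and all 3 Slits were lower in double positive than in double negative cells. Ntn1 was at 90.1, 187 and 107 CPM in double negative and 5.14, 10.8 and 11.8 CPM in double positive libraries (log2 -3.77, SE 0.41, adjusted p = 0.000906, edgeR). Slit2 was at 132, 103 and 150 against 16.3, 12.9 and 28.1 CPM (-2.72, SE 0.3, adjusted p = 0.000932), Slit1 at 74.6, 51.4 and 75.4 against 21.2, 18.7 and 27 CPM (-1.56, SE 0.19, adjusted p = 0.00114) and Slit3 at 91.4, 139 and 140 against 44.1, 57.4 and 64.6 CPM (-1.13, SE 0.22, adjusted p = 0.00831). All 3 Slits were thus lower where Robo1 and Robo2 were higher. Sema6a was at 85.7, 128 and 86.6 against 20.5, 23.9 and 22.9 CPM (-2.13, SE 0.19, adjusted p = 0.000339) and Sema4d at 45.8, 34.3 and 41.2 against 7.67, 5.53 and 10.2 CPM (-2.34, SE 0.22, adjusted p = 0.000457). Plxnb1, the Sema4d receptor, was at 344, 347 and 351 against 128, 143 and 152 CPM (-1.27, SE 0.09, adjusted p = 0.000197), and Ephb3 at 95, 79.1 and 113 against 27, 20.3 and 27.4 CPM (-1.91, SE 0.17, adjusted p = 0.00033). Unc5b (0.35, adjusted p = 0.312) and Sema4a (0.28, adjusted p = 0.501) were not called with or without the block. Sema7a (-1.13, adjusted p = 0.233), Sema6d (-0.76, 0.116) and Sema3f (-0.76, 0.0604) were called with the block alone. Each of these 5 was called in the other direction in another comparison.

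**Figure D5:**
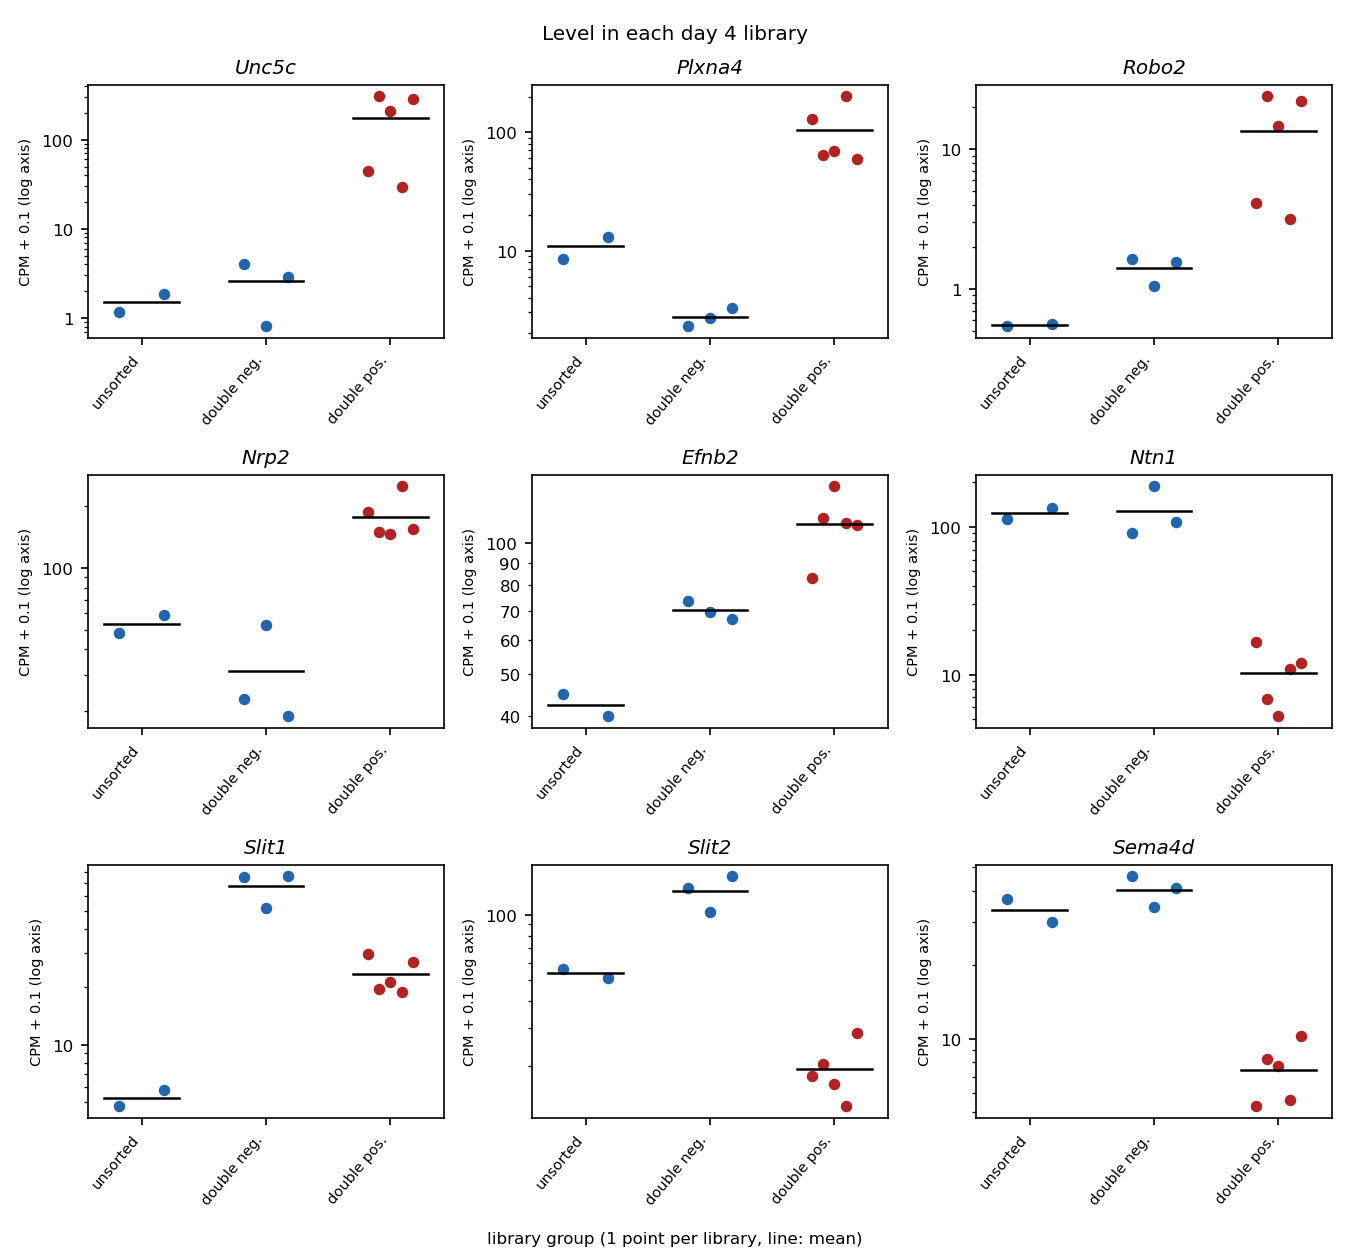
Level of 9 members in each day 4 library, as CPM + 0.1 on a log axis (red points double positive, blue points unsorted and double negative, black lines group means). Unc5c, Plxna4, Robo2, Nrp2 and Efnb2 are highest and Ntn1, Slit2 and Sema4d lowest in double positive cells, while Slit1 lies between unsorted and double negative cells.

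Markers of the gate's other contents moved too. Summed pluripotency markers were at 1700 to 2370 CPM in double negative and 374 to 626 CPM in double positive libraries, Dppa3 having no count in the latter, and 10 of 11 tested were called lower. Neural markers were at 190 to 285 against 92 to 117 CPM. Endoderm markers were at 952 to 1040 against 77.2 to 123 CPM and neural crest markers at 25.6 to 32.5 against 76.9 to 183 CPM. Endothelial markers were at 27 to 32.5 against 35.3 to 66.7 CPM, with Emcn at 0 in both. Blood markers were at 20.4 to 44.4 against 49.6 to 99.3 CPM and mesoderm markers at 1020 to 1840 against 1880 to 4360 CPM. The mesoderm list holds the gate genes Kdr and Pdgfra, so part of that rise was set by the sort itself. The part of all these markers in the members' differences was not tested. Of the effector genes 6 of 44 were higher and 11 lower, and of the other guidance genes 6 of 30 were higher and 14 lower, the gate gene Kdr being one of those 6 higher guidance genes. Over all genes tested 9.41% were higher and 16.2% lower.

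Calls of dox at 24 h and of the day 4 sort come from different libraries. Of the 24 members higher with dox, 13 were also among the 16 higher in double positive cells, 4 were lower there (Epha7, Sema4c, Slit1 and Slit2), 6 were not called and 1 was not tested. Of the 16 lower with dox, 12 were among the 19 lower in double positive cells and none was higher. The 12 h effect shared 7 of its 10 higher members with the sort, and 2 of its 3 lower ones. The matching share over all genes was not computed, here or for the other overlaps of calls. These counts therefore do not show whether members agreed more often than other genes.

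Unsorted day 4 cells gave a second reference, compared with double positive replicates 1 and 2. Here 42 of 65 members were called, 20 higher and 22 lower, 64.6% against 51.7% of all genes (22.9% higher, 28.8% lower), so the members' share lay nearer to the background than against double negative cells. Some members, named after their values were seen, lay outside the range of both gates in unsorted cells. Mean Nrp1 was 10.6 CPM in unsorted, 99.3 CPM in double negative and 263 CPM in double positive cells (replicates 1 and 2). Mean Epha1 was 454, 139 and 46.5 CPM in the same order. The labels do not say that dox treatment was the same, so gate and culture cannot be told apart in this comparison. Markers moved here as well, and their part was not tested: 11 of 12 pluripotency markers, 9 of 10 endoderm and 6 of 10 neural markers were called lower. Of blood markers 4 of 6 were higher, of endothelial markers 3 of 11 were higher and 3 lower, of mesoderm markers 4 of 16 higher and 2 lower, and of neural crest markers 2 of 7 higher and 4 lower. The higher mesoderm markers include the gate genes Kdr (log2 3.3) and Pdgfra (1.35). Of the 16 members higher against double negative cells, 12 were among these 20, and of the 19 lower 16 were among these 22. Slit1 went the other way: it was at 4.68 and 5.69 CPM in unsorted and 29.5 and 19.4 CPM in double positive libraries (log2 2.4, SE 0.25, adjusted p = 0.00107, edgeR), lower than in double negative cells and higher than in unsorted ones. Slit2 was at 55.9 and 50.7 against 17.9 and 20.3 CPM (-1.32, SE 0.1, adjusted p = 0.000349) and Slit3 at 179 and 161 against 50.5 and 36.2 CPM (-1.81, SE 0.18, adjusted p = 0.00118).

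Sema3e was at 43.7 and 36.2 CPM in unsorted and 3.97 and 5.03 CPM in double positive libraries (log2 -2.99, SE 0.17, adjusted p = 8.9e-05, edgeR), Sema4f at 3 and 2.73 against 0.283 and 0.352 CPM (-2.99, SE 0.29, adjusted p = 0.000736), Sema6a at 179 and 169 against 30 and 19.6 CPM (-2.65, SE 0.22, adjusted p = 0.000777) and Sema3b at 3.12 and 3.14 against 0.397 and 0.503 CPM (-2.62, SE 0.26, adjusted p = 0.000837). Efna5, a ligand of several EphA receptors, was at 23.5 and 25.3 against 39 and 44.9 CPM (0.94, SE 0.1, adjusted p = 0.00115) and Nrp2 at 47.9 and 58.8 against 188 and 149 CPM (1.82, SE 0.17, adjusted p = 0.000762). Ephb6, an Eph receptor without kinase activity, was at 38.5 and 37.7 against 17.9 and 17.6 CPM (-0.94, SE 0.09, adjusted p = 0.000785). Efna2 (-0.26), Sema4c (-0.19), Plxnb2 (-0.22), Sema4a (0.18) and Sema7a (-0.93) were not called. The count was 26 without either unsorted library.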

How the data were processed

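RNA was sequenced from 36 libraries in 15 groups, and samples were grouped by their labels. The values are whole-number read counts per gene as deposited by the authors. The submitters' processing notes name Trimmomatic, STAR, HTSeq, DESeq2 and mm10 without versions, with annotation and strandedness not given in the sources used here. Rows that name no gene (3.52 to 10.1% of counts in no feature and 3.77 to 5.12% ambiguous) stayed out of library totals and tests. Reads in exon bases shared with another gene can be lost from a count, which concerns 23.4% of the exon bases of Ntn5, 14.1% of Efna3, 10.7% of Plxna1 and 10.5% of Efna4.

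Members were taken by symbol from the protein-coding genes of GENCODE M21 (GRCm38). Members and gene lists were chosen with earlier results of these data known. Differences were fitted across all genes with edgeR 4.0.16 in R 4.3.3 (TMM scaling, filterByExpr, robust quasi-likelihood test) with Benjamini-Hochberg adjustment over all genes tested, and every adjusted p in the text comes from it. One fit with a batch term covered batches 1 and 2, and batch 3, 2i and day 4 comparisons used their own libraries. Calls have an adjusted p below 0.05. Named genes are the called members of smallest p in each comparison, and uncalled ones called in opposite directions elsewhere. Others were named after their values were seen. Each direct comparison of groups was checked on simulated counts with 200 changed genes. The tests of a difference between dox effects (times, batches, or 2i against 24 h) were not. Simulated libraries were drawn independently, so a shared deviation of same-numbered libraries was not part of the check. How many changed genes were recovered is not given here, so the simulations do not show that a comparison without calls could have found changes. Replicates differed beyond sampling noise in all groups (chi-square per degree of freedom at least 5.23).

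Alternatives were DESeq2 1.42.0, its size factors, no filter, a replicate block, each batch alone and leaving out each library. Same-numbered double positive and double negative libraries deviated together (correlations 0.391, 0.55 and 0.512), so these numbers were taken to pair the samples. Same-numbered libraries with and without dox also deviated together in batch 1 at 24 h (0.755), at 12 h (0.646) and in 2i (0.828). In batch 2 they did not (-0.0208 and -0.0432). The main fits used no replicate block, for the sort either.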

Additional observations from a re-analysis of the deposited data

Results flagged for a closer look

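Replicate 1 of the batch 2 libraries with dox lay apart from the other 3 in 9 members, by a gap test at the 95% level within each group of 4 or 5 libraries. Its values were 15.9 CPM for Sema4g, 26.9 for Plxna3, 157 for Plxnd1, 121 for Ntn1, 2.71 for Ntn4, 17.9 for Unc5a, 25.2 for Unc5c, 4.84 for Ephb1 and 28.5 for Efnb3. Mesp1 was at 544 CPM in it and at 42.9 to 209 CPM in the other 3, and the part of Mesp1 in these values was not tested. Among double positive libraries Sema3d stood apart in replicate 5 with 0.577 CPM and Epha5 in replicate 4 with 1.57 CPM. Of 116 combinations of member and group, 11 stood apart, and chance gives about 1 in 20.

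The dox effect differed between times, batches or media by a test of the difference itself (edgeR, log2 scale). It was larger at 24 h than at 12 h by 3.27 for Unc5c and by 1.98 for Efnb2. It was larger in batch 2 than in batch 1 by 1.51 for Sema3f, 2.81 for Sema6d, 2.59 for Plxna2, 4.93 for Plxna4, 2.59 for Nrp1, 1.97 for Slit1, 4.94 for Robo3, 1.68 for Efna3 and 2.83 for Efnb1. In 2i minus 24 h it differed by 2.86 for Sema3c, 2.68 for Sema3e, 1.85 for Sema4d, 3.15 for Sema6a, -2.4 for Plxnd1, 3.37 for Epha2, -2.76 for Epha3 and -4.09 for Epha4.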

How the results depend on the processing

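Of the values of single called members under the alternatives, 2090 kept direction and call, 343 kept direction and lost the call, and 4 reversed. The reversed ones were Slit1 (-0.01), Nrp1 (-0.63) and Robo3 (-1.08) from 0 h to 24 h in batch 2 alone, and Sema3f (0.03) between bulk and double positive replicates 3 to 5. The cause was not tested. Counted by member, fewer calls were stable. For dox at 24 h 19 of the 40 called members kept their call in all alternatives. From 0 h to 24 h without dox 9 of 38 did, and for double positive against double negative cells 22 of 35. For dox at 24 h the 40 called members became 27 to 43 under the other settings and 31 to 40 with 1 library left out. For the double positive and double negative comparison the 35 became 28 to 42 and 26 to 37. Without a filter on low counts the count was 24 for dox at 12 h, 9 for 12 h against 0 h, 1 for dox in 2i, 15 for the change of the dox effect from 12 h to 24 h, 15 for the batch difference and 24 for the difference of 2i from 24 h. DESeq2 gave 3 for 12 h against 0 h, 1 for dox in 2i, 7 for the change from 12 h to 24 h and 21 for the difference of 2i from 24 h. Batch 1 alone gave 21 for dox at 12 h, and batch 2 alone gave 9 for 24 h against 0 h. With 1 library left out, dox at 12 h gave 5 to 9, 12 h against 0 h 0 to 1, the Zic2 knockout label 0 to 1, double positive against bulk 26 to 47, the change from 12 h to 24 h 0 to 5, the batch difference 2 to 10, and 2i against 24 h 5 to 11. A group left with 1 library is then assumed to vary like the others. With the replicate number as a block, dox in 2i gave 5 members, the change from 12 h to 24 h 5, the difference of 2i from 24 h 13, double positive against double negative 42 and double positive against bulk 37. The labels do not say that numbers pair these libraries, and no block was fitted for the batch difference. Members near 1 CPM, such as Sema3c with dox, rest on few reads.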
